A study of Mus musculus with 11 samples.

Results

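The genes described here encode the nuclear subunits of the oxidative phosphorylation machinery, together with a few factors that share their names. They were chosen by symbol alone, as every gene in the count files whose symbol begins with Nduf, Uqcr, Cox4 to Cox8 or Atp5, leaving out pseudogenes marked -ps. The rule found 88 of the 36529 genes listed. By known role they comprise 36 subunits of complex I, 8 of complex III, 20 of complex IV, 15 of complex V and 9 assembly or accessory factors. Ndufa4 and Ndufa4l2 were placed with complex IV, where the protein of Ndufa4 is found, and not with complex I as their symbols read.

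BV2 cells, a transformed line of microglia from C57BL/6 mice, were profiled by RNA sequencing in 11 libraries. In the first experiment, 3 libraries came from cells given 25 μg/ml of nApoE4, a His-tagged fragment of apolipoprotein E4 that holds residues 1 to 151, for 5 h, and 3 untreated libraries (ControlA) served as its controls. In the second experiment, 2 libraries came from cells given the matching nApoE3 fragment at the same dose and time, with 3 untreated libraries of their own (ControlB). The fragments differ by a single residue, and fragment and experiment cannot be told apart, since each fragment was tested in its own experiment. The labels name a PBS vehicle for untreated cells and the methods of the study name conditioned media, so what the controls received is not known. A cultured line stands for microglia only in part. P2ry12, a marker of resting microglia, had 0 counts in every library. Of the other listed markers of microglia and macrophages, Cd68, Csf1r, Itgam, Ptprc and Tyrobp were well counted. Aif1 had at most 10 counts in a library, Cx3cr1 3 to 43 and Tmem119 52 to 646. Trem2 had 21 to 220 outside ControlA replicate 1, where it had 2578. The assembly factor genes Sco2, Ecsit and Cox16 also had 0 counts in every library. Whether reads of P2ry12 were lost in the counting was not tested. The summed level of 10 microglial and macrophage markers was 2835 to 3095 CPM (counts scaled to library size, with TMM factors) in ControlA, 2710 to 2789 with nApoE4, 2028 to 2112 in ControlB and 2241 to 2244 with nApoE3. Markers of astrocytes, neurons and fibroblasts summed to less than 1 CPM in every library. Those of oligodendrocytes summed to 9.28 to 25.4 CPM, with Mog at 0, and those of endothelium to 42.7 to 176 CPM, nearly all of it Kdr, with Cldn5 at 0. Kdr was lower with both fragments, and its part in the results below was not tested.

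Oxidative phosphorylation turns the energy of nutrients into ATP at the inner mitochondrial membrane. Complex I takes electrons from NADH and complex II from succinate, complex III passes them to cytochrome c and complex IV hands them to oxygen, while complexes I, III and IV pump protons that drive the ATP synthase, complex V. Most subunits are made from nuclear genes and must be matched to the few made inside the mitochondrion, and activated macrophages and microglia are known to shift their energy supply from respiration towards glycolysis.

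Libraries of the first experiment held 39732710 to 44162511 counts and those of the second 55809688 to 69768666. A level of 3 counts, the floor used here for counting error alone, corresponded to 0.043 to 0.0755 CPM. The members took 1.04 to 1.44% of all counts in a library. They were well counted as a rule, with a median over members tested of 121 CPM in untreated libraries against 18.6 CPM over all genes tested, and their exons were short, with a median of 1718 bases against 4269. Enough counts for testing were found for 82 members. The other 6 all belong to complex IV, with at most 10 counts in any library: Cox4i2, Cox6b2, Cox7b2, Cox8b, Cox8c and Ndufa4l2. Members had positions on 19 chromosomes and 32 of them shared exon bases with another gene.

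A few members stood far below their partners in the same complex, although the proteins are needed in equal number. CPM per kilobase of exon was 1.34 for Atp5a1 in ControlA against 378 for Atp5b, its partner in the catalytic head of the ATP synthase. Atp5a1 held 136 to 249 counts in a library, Ndufs3 held 5 to 21, Ndufa7 held 11 to 51 and Uqcrc1 held 34 to 393. Uqcrc1, a core subunit of complex III, was at 9.23 CPM in ControlA replicate 1 and between 0.602 and 1.34 CPM in the other 10 libraries. The microglial receptor gene Trem2 had its highest count, 2578, in the same library, against 21 in its lowest. Reads that map to more than 1 place made up 11.7 to 13.2% of the reads tallied and were not counted on genes. Their part in these low counts was not tested, and counts and medians of their complexes include these 4 genes unless said otherwise.

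Levels of the members moved together from library to library, and the spread differed between the experiments. The median over members of log2 CPM minus the mean of the own controls was −0.03 in ControlA replicate 1, 0.20 in replicate 2 and −0.16 in replicate 3. With nApoE4 it was −0.16, −0.22 and −0.06 in replicates 1, 2 and 3. The treated libraries therefore lay below 2 of their 3 controls, and ControlA replicate 3 sat among them. In the second experiment it was 0.00, −0.03 and 0.03 in ControlB and −0.06 and −0.12 with nApoE3, so both treated libraries lay below all 3 controls. Over all genes tested, the medians ranged from −0.007 to 0.012 across libraries. Summed over members, the level was 12167, 14136 and 11143 CPM in ControlA, 11815, 10971 and 12046 CPM with nApoE4, 12229, 11936 and 12408 CPM in ControlB, and 11716 and 11310 CPM with nApoE3. The groups overlapped in the first experiment and did not in the second. In whole cultures, fewer cells of a kind and less RNA per cell cannot be told apart.

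**Figure D1:**
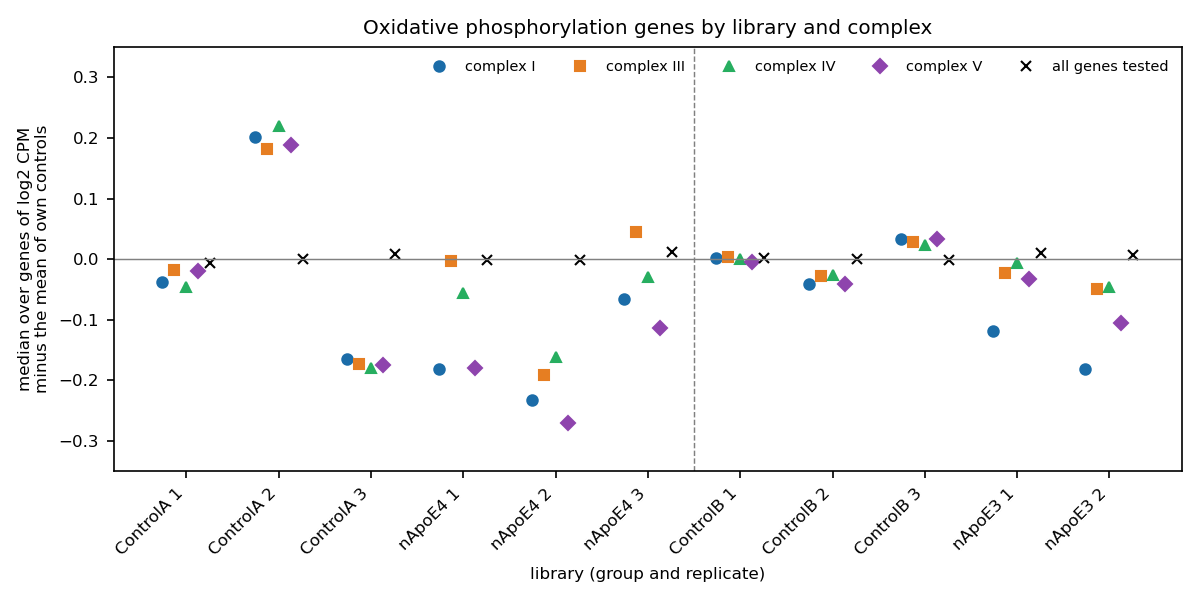
For each library (x axis, group and replicate), the median over the genes of a complex of log2 CPM minus the mean of that library's own controls (y axis, log2 units), with all genes tested as crosses and a dashed line between the experiments. ControlA replicates 2 and 3 lie near 0.20 and −0.16 for every complex, whereas ControlB libraries lie close to 0 and complex I is lowest with nApoE3, at −0.12 and −0.18.

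With nApoE4, most members were slightly lower and few passed the test. Of the 82 members tested, 13 fell and 4 rose at an adjusted p under 0.05 by the quasi-likelihood test of edgeR, which is 20.7% against 57.2% of all 14240 genes tested, 28.6% in each direction. The median log2 fold change over members was −0.15, against 0.00 over all genes, and 66 of the 82 estimates were below 0. It was −0.06 without ControlA replicate 2, −0.10 without nApoE4 replicate 2 and −0.23 without ControlA replicate 3. The largest change past the test was −0.81 on this scale, while 17.7% of all genes passed with a change over 2-fold. All 3 treated libraries lay below all controls for 18 members and above them for 3, which over all genes was the case for 30.8% and 30.9%. The size of the changes had a median of 0.17 log2 units against 0.36 log2 units for all genes. The counts depended on the controls: without ControlA replicate 2, 13 fell and 11 rose, and without ControlA replicate 3, 36 fell and 2 rose. Over all genes, 8827 of 14561 and 8076 of 14511 were called in these fits. Leaving out ControlA replicate 1 or any of the nApoE4 libraries gave 7 to 9 lower. Scaling to total counts in place of TMM gave 38 lower and 3 higher, with 8309 of all 14240 genes called.

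With nApoE3, 44 members fell and 2 rose, which is 56.1% of those tested against 67.7% of all 14817 genes, with 34.6% of all genes lower and 33.1% higher. The median log2 fold change over members was −0.09, smaller than with nApoE4, and the median standard error was 0.03 against 0.10. Ndufa7, on few counts, was the 1 member past the test with a change over 2-fold, which held for 16.2% of all genes. Both treated libraries lay below all 3 controls for 49 members and above them for 2, each of which held for 38.2% of all genes. The spread between libraries was smaller too, with a biological coefficient of variation of 0.0262 against 0.0838 in the first experiment. In 1 fit of all 11 libraries, 14 members fell with nApoE3 and 25 with nApoE4. That fit shared 1 estimate of the spread and also filtered and scaled the genes anew. It called 8326 of 15287 genes with nApoE3 and 9228 with nApoE4. Scaling to total counts gave 75 lower with nApoE3, while it moved the median of all genes to −0.13 and that of the members to −0.23. With that scaling 10378 of all 14817 genes were called.

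Complex I, whose subunits carry electrons from NADH along a chain of iron-sulfur clusters, held 25 of the 44 members that fell with nApoE3 and 5 of the 13 that fell with nApoE4. With nApoE3, 25 of its 36 members fell and 1 rose, which is 72.2% called against 67.7% of all genes. Of all genes, 34.6% fell and 33.1% rose. The median log2 fold change of complex I was −0.15. The 1 that rose was Ndufa7, on few counts. Its core subunits, those shared with bacteria, fell in 6 of 7 cases with a median of −0.24. Of the 29 accessory subunits 19 fell, with a median of −0.11. With nApoE4, 5 of the 36 fell and 1 rose, which is 16.7% called against 57.2% of all genes. The median was −0.16, and 32 of the estimates were below 0. That median was −0.06 without ControlA replicate 2 and −0.24 without ControlA replicate 3. The summed level of complex I was 3404, 3972 and 3126 CPM in ControlA and 3204, 3021 and 3312 CPM with nApoE4, which overlap. It was 3598, 3496 and 3655 CPM in ControlB and 3271 and 3151 CPM with nApoE3, where both treated libraries were lower, at 89.6% of the control mean.

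Ndufv3, an accessory subunit of the NADH-binding part of complex I (chr17:31520115-31531326), showed the largest fall past the test among subunits with nApoE4. Its level was 90.7, 105 and 83.1 CPM in ControlA and 64.6, 61.8 and 61.9 CPM with nApoE4. It was 59.7, 57.7 and 60.7 CPM in ControlB and 46.8 and 43.5 CPM with nApoE3. Treated libraries lay below every control in both experiments. The log2 fold change was −0.56 ± 0.08 (SE, adjusted p = 0.00028) with nApoE4 and −0.40 ± 0.04 (adjusted p = 1.4e-06) with nApoE3. Untreated levels also differed between experiments, so that nApoE4-treated cells had about as much Ndufv3 as the untreated cells of ControlB.

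Ndufb10, an accessory subunit of the membrane arm (chr17:24722060-24724423), was at 102, 124 and 92.9 CPM in ControlA and at 85.4, 74.5 and 83.1 CPM with nApoE4. In the second experiment it was at 158, 156 and 160 CPM in ControlB and at 124 and 122 CPM with nApoE3. The groups did not overlap in either experiment, and the log2 fold changes were alike, −0.39 ± 0.10 (adjusted p = 0.0092) and −0.37 ± 0.02 (adjusted p = 4.9e-08). Ndufs7, which holds the last iron-sulfur cluster before ubiquinone (chr10:80249105-80256794), fell from 93.4 ± 11.9 (SD, n = 3) to 73.7 ± 1.38 CPM with nApoE4 and from 55.8 ± 3.02 to 47 ± 2.48 CPM (n = 2) with nApoE3. Its log2 fold changes were −0.34 ± 0.09 (adjusted p = 0.0078) and −0.25 ± 0.05 (adjusted p = 0.00044). Ndufb8, another accessory subunit, fell by 0.25 ± 0.09 and 0.12 ± 0.03 on the log2 scale (adjusted p = 0.037 and 0.0019).

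Some complex I genes fell with nApoE3 and not detectably with nApoE4. Ndufs1, the largest core subunit, was at 160 CPM in all 3 ControlB libraries and at 136 CPM in both nApoE3 libraries, a log2 fold change of −0.24 ± 0.02 (adjusted p = 1.5e-06). In the first experiment it was at 79.8, 81.4 and 85.3 CPM in ControlA and 82.0, 75.8 and 83.5 CPM with nApoE4, where the groups overlap and the change was −0.03 ± 0.06 (adjusted p = 0.74). Ndufa5, an accessory subunit, fell by 0.29 ± 0.03 with nApoE3 (adjusted p = 5.7e-06) and its estimate with nApoE4 was −0.18 ± 0.10 (adjusted p = 0.15). For Ndufa5 the difference between the fragments did not pass its own test, whereas for Ndufs1 it did, as described below. Ndufa11, an accessory subunit of the membrane arm, passed the test with nApoE4 alone, at −0.24 ± 0.09 (adjusted p = 0.039) against −0.02 ± 0.04 with nApoE3 (adjusted p = 0.65).

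Complex III, which passes electrons from ubiquinol to cytochrome c, changed little as a whole. Of its 8 members 2 fell with each fragment, with medians of −0.02 and −0.04. That is 25% called with each, against 57.2% of all genes with nApoE4 and 67.7% with nApoE3. Falls alone made up 28.6% and 34.6% of all genes. With nApoE4 the median changed sign, at 0.07 without ControlA replicate 2, −0.10 without ControlA replicate 3 and 0.03 without the low-count Uqcrc1. Uqcr11, a small accessory subunit (chr10:80402997-80406821), fell with both. It was at 125, 134 and 99.9 CPM in ControlA and 88.3, 85.6 and 97.0 CPM with nApoE4, and at 83.3, 80.6 and 84.4 CPM in ControlB and 70.5 and 65.1 CPM with nApoE3. Every treated library was below every control, although nApoE4 replicate 3 lay close to ControlA replicate 3. The log2 fold changes were −0.40 ± 0.10 (adjusted p = 0.0081) and −0.29 ± 0.04 (adjusted p = 1.7e-05). Uqcrh, the hinge protein that aids the docking of cytochrome c, fell with nApoE4 by 0.40 ± 0.11 (adjusted p = 0.013) and by 0.33 without nApoE4 replicate 2, when the adjusted p was 0.051. With nApoE3 its estimate was −0.05 ± 0.03 (adjusted p = 0.10). Uqcrc2, a core subunit, was at 216 ± 14.8 and 228 ± 11.4 CPM without and with nApoE4 (n = 3 each), and at 320 ± 1.49 (n = 3) and 314 ± 1.95 CPM (n = 2) without and with nApoE3, with no change past the test.

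Complex IV, cytochrome c oxidase, moved little in its median. Of its 14 tested members 1 passed the test with nApoE4, a rise of Cox6a2, while 5 fell with nApoE3. That is 7.14% and 35.7% called, against 57.2% and 67.7% of all genes. With nApoE3, 34.6% of all genes fell. The medians were −0.09 and −0.03. The first became 0.01 without ControlA replicate 2 and −0.19 without ControlA replicate 3, and the second ranged from −0.05 to −0.01 with 1 library left out. Cox4i1, the regulatory subunit and best counted member, was at 895, 1069 and 794 CPM in ControlA and 904, 847 and 939 CPM with nApoE4, a change of −0.03 ± 0.10. With nApoE3 it was at 967 and 924 CPM against 1010, 957 and 991 CPM in ControlB. Those groups overlap, and the log2 fold change of −0.07 ± 0.03 (adjusted p = 0.034) did not pass with the Wald test of DESeq2 (adjusted p = 0.055). Cox7a1, the heart and muscle form of a small subunit, showed the largest fall, from 3.16, 3.41 and 3.12 CPM to 2.39 and 1.79 CPM with nApoE3, or −0.63 ± 0.15 (adjusted p = 0.0021). With nApoE4 its estimate was −0.18 ± 0.13 (adjusted p = 0.26).

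Cox6a2, the heart and muscle form of the regulatory subunit Cox6a, was the complex IV member that rose with nApoE4. Its level was 33.5, 46.2 and 31.3 CPM in ControlA and 44.9, 47.6 and 53.9 CPM with nApoE4, so that ControlA replicate 2 overlapped the treated libraries. The log2 fold change was 0.40 ± 0.14 (adjusted p = 0.028) and did not pass without ControlA replicate 1 (adjusted p = 0.11), ControlA replicate 3 (0.074), nApoE4 replicate 2 (0.06) or nApoE4 replicate 3 (0.11). With nApoE3 it stayed between 40.5 and 41.5 CPM in all 5 libraries (log2 fold change 0.00 ± 0.03). Its partner Cox6a1, used in most tissues, fell with nApoE3 by 0.13 ± 0.03 (adjusted p = 0.0064), a call that was lost without nApoE3 replicate 2 (−0.07, adjusted p = 0.11), and its estimate with nApoE4 was −0.06 ± 0.09.

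Complex V, the ATP synthase, was lower with nApoE4 in the estimates of all 15 of its members, the low-count Atp5a1 included. Of these 4 passed the test, and the median was −0.21. With nApoE3, 8 fell and the median was −0.08. That is 26.7% and 53.3% called, against 57.2% and 67.7% of all genes. Falls alone made up 28.6% of all genes with nApoE4 and 34.6% with nApoE3. The medians were −0.11 with nApoE4 without ControlA replicate 2 and −0.04 with nApoE3 without nApoE3 replicate 2. Its summed level was 4184, 4775 and 3866 CPM in ControlA and 4037, 3733 and 3994 CPM with nApoE4, and ControlA replicate 3 lay among the treated libraries. It was 4213, 4140 and 4294 CPM in ControlB and 4127 and 3983 CPM with nApoE3. Atp5b, the catalytic beta subunit and the most counted of all members, did not pass the test with either fragment, at 1601 ± 124 and 1578 ± 73.1 CPM (n = 3 each) and at 1735 ± 20.1 (n = 3) and 1729 ± 41.5 CPM (n = 2). Atp5j2, subunit f of the membrane part (chr5:145183704-145191541), was at 161, 183 and 135 CPM in ControlA and 128, 116 and 138 CPM with nApoE4, where 1 control overlaps, and at 202, 193 and 202 CPM in ControlB and 166 and 160 CPM with nApoE3. It fell by 0.32 ± 0.11 (adjusted p = 0.028) and 0.29 ± 0.03 (adjusted p = 1.6e-06). Atp5d, the delta subunit of the central stalk, fell with nApoE4 alone, by 0.22 ± 0.08 (adjusted p = 0.040). Ndufb8 and Atp5d were named after their values were seen.

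Atp5g1, Atp5g2 and Atp5g3 encode the same c subunit of the rotor ring, so their shares can be read against each other. Atp5g1 (chr11:96072793-96075694) was at 170, 191 and 146 CPM in ControlA and at 126, 125 and 124 CPM with nApoE4, a log2 fold change of −0.43 ± 0.09 (adjusted p = 0.0025). With nApoE3 it was at 121 and 113 CPM against 119, 114 and 120 CPM in ControlB, a change of −0.01 ± 0.03. Atp5g3 fell by 0.22 ± 0.08 with nApoE4 (adjusted p = 0.049), a call that was lost when any library but ControlA replicate 3 was left out (adjusted p 0.07 to 0.14), and by 0.08 ± 0.03 with nApoE3 (adjusted p = 0.020). The latter call was lost without ControlB replicate 1 (adjusted p = 0.058), ControlB replicate 3 (0.053) or nApoE3 replicate 2 (−0.04, 0.23), and in a shared fit of the 11 libraries (0.48). Atp5g2 did not change past the test with either. On the scale of CPM per kilobase of exon, Atp5g1 took 10.6% ± 0.328 of the sum of the 3 genes in ControlA and 8.88% ± 0.208 with nApoE4 (SD, n = 3 each). Atp5g2 took 37.0% ± 0.201 and 40.2% ± 0.619 of it. These shares depend on lengths that join the exons of all annotated transcripts, 4912, 1675 and 2181 bases for Atp5g1, Atp5g2 and Atp5g3. Mean levels in ControlA were 169, 202 and 372 CPM in the same order. The larger difference was between experiments. Atp5g2 took 16.5% ± 0.408 in ControlB and 17.1% ± 0.403 with nApoE3, and Atp5g3 took 74.6% and 73.8% there against 52.4% and 50.9% in the first experiment.

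**Figure D2:**
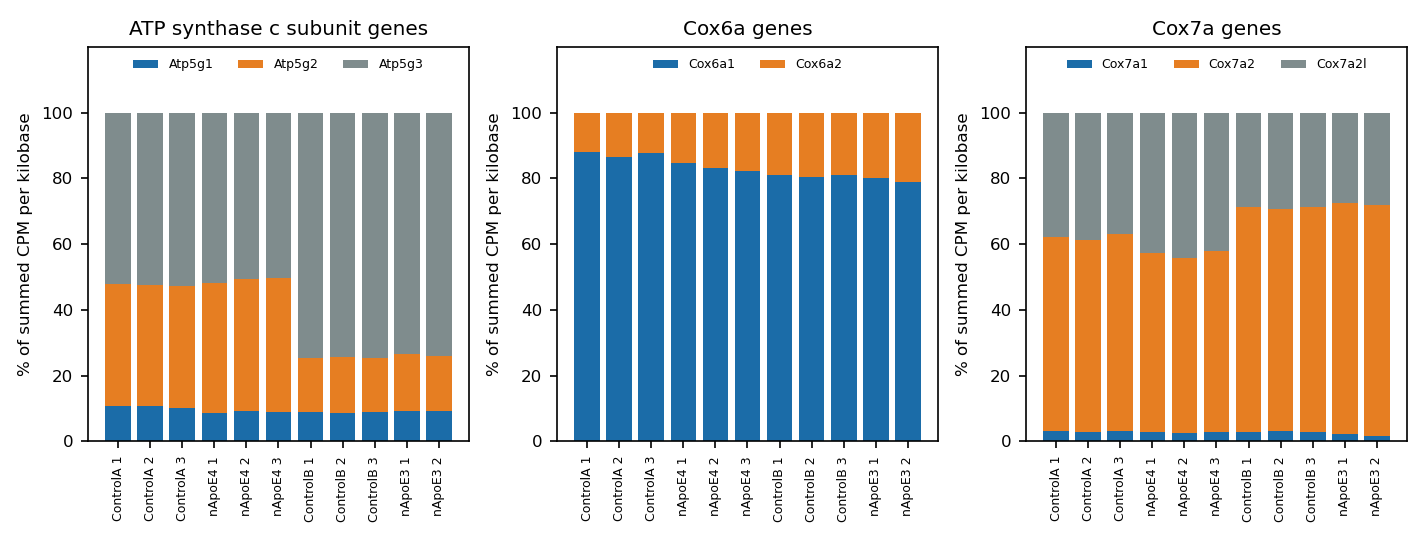
Share of each gene in the summed CPM per kilobase of exon of its group (y axis, percent) for each of the 11 libraries (x axis), for the 3 genes of the c subunit of the ATP synthase, the Cox6a genes and the Cox7a genes. The c subunit bars split by experiment, with Atp5g2 at 36.8 to 40.8% in the first and 16.3 to 17.4% in the second, and Cox6a2 takes 11.9 to 13.5% in ControlA and 15.4 to 17.7% with nApoE4.

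Other paired forms of complex IV subunits were nearly all of 1 kind. Cox4i1, Cox6b1, Cox7b, Cox8a and Ndufa4 each took over 99.8% of their group in every library. Of the forms bound to other tissues or to low oxygen, Ndufa4l2 had at most 10 counts, Cox7b2 6, Cox4i2 3, Cox8b 3, Cox6b2 1 and Cox8c 0. AA467197, a gene related to Ndufa4 and known to rise in inflamed cells, had at most 1 count in any library, which is under the floor. Whether its reads were lost in the counting was not tested. Among the Cox7a genes, Cox7a2l, which helps tie complexes III and IV into supercomplexes, took 38.0% ± 0.916 per kilobase in ControlA and 43.1% ± 1.07 with nApoE4, and the share of Cox7a2 went from 59.1% ± 0.84 to 54.2% ± 0.941. The levels themselves did not pass the test with nApoE4, with log2 fold changes of 0.11 ± 0.10 for Cox7a2l and −0.19 ± 0.09 for Cox7a2. With nApoE3, the share of Cox7a2l was 29.0% ± 0.331 and 27.8% ± 0.381, and its level fell by 0.09 ± 0.03 (adjusted p = 0.018, or 0.056 with DESeq2). Cox6b1, Cox7b and Cox8a had estimates of −0.18, −0.19 and −0.15 with nApoE4 and −0.01, 0.02 and 0.00 with nApoE3, none past the test.

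The assembly and accessory factors, which help build the complexes without staying in them, held the largest fall past the test with each fragment. Of 9 tested, 2 rose and 2 fell with nApoE4, and 1 rose and 4 fell with nApoE3. That is 44.4% and 55.6% called, against 57.2% and 67.7% of all genes. The member with the largest fall was Atp5sl, an assembly factor of the membrane arm of complex I despite its symbol. It was at 22.4, 23.0 and 21.5 CPM in ControlA and 13.6, 12.4 and 12 CPM with nApoE4, and at 22.8, 22.6 and 21.7 CPM in ControlB and 13.1 and 12.9 CPM with nApoE3. Treated and untreated libraries were far apart in both experiments, while the untreated levels were alike. The log2 fold changes were −0.81 ± 0.07 (adjusted p = 1.0e-05) and −0.79 ± 0.05 (adjusted p = 1.1e-08), which correspond to falls of 43.0% and 42.1%, and their difference was −0.03 ± 0.09.

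Ndufaf7 (chr17:78937106-78948052), a methyltransferase that acts in the assembly of complex I, was at 28.6, 34.4 and 26.7 CPM in ControlA and at 25.2, 22.8 and 22.9 CPM with nApoE4. It was at 34.6, 34.9 and 36.5 CPM in ControlB and at 21.1 and 22.5 CPM with nApoE3. All treated libraries were below their controls. It fell by 0.33 ± 0.10 (adjusted p = 0.013) with nApoE4, with an adjusted p of 0.056 without nApoE4 replicate 3, and by 0.70 ± 0.04 (adjusted p = 2.5e-08) with nApoE3. Ndufaf4 (chr4:24898083-24905001), an assembly factor of the arm that joins the membrane, was the member that rose with both. It was at 21.5, 27.6 and 22.5 CPM in ControlA and 29.4, 28.2 and 30.5 CPM with nApoE4, a change of 0.31 ± 0.09 (adjusted p = 0.018). It was at 47.4, 48.4 and 47.3 CPM in ControlB and 51.0 and 52.9 CPM with nApoE3, a change of 0.12 ± 0.03 (adjusted p = 0.0070) that became −0.02 when scaled to total counts. With nApoE4 the call was lost without ControlA replicate 1 (adjusted p = 0.084), ControlA replicate 3 (0.051), nApoE4 replicate 1 (0.05) or nApoE4 replicate 3 (0.068), and with nApoE3 without nApoE3 replicate 2 (0.074).

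**Figure D3:**
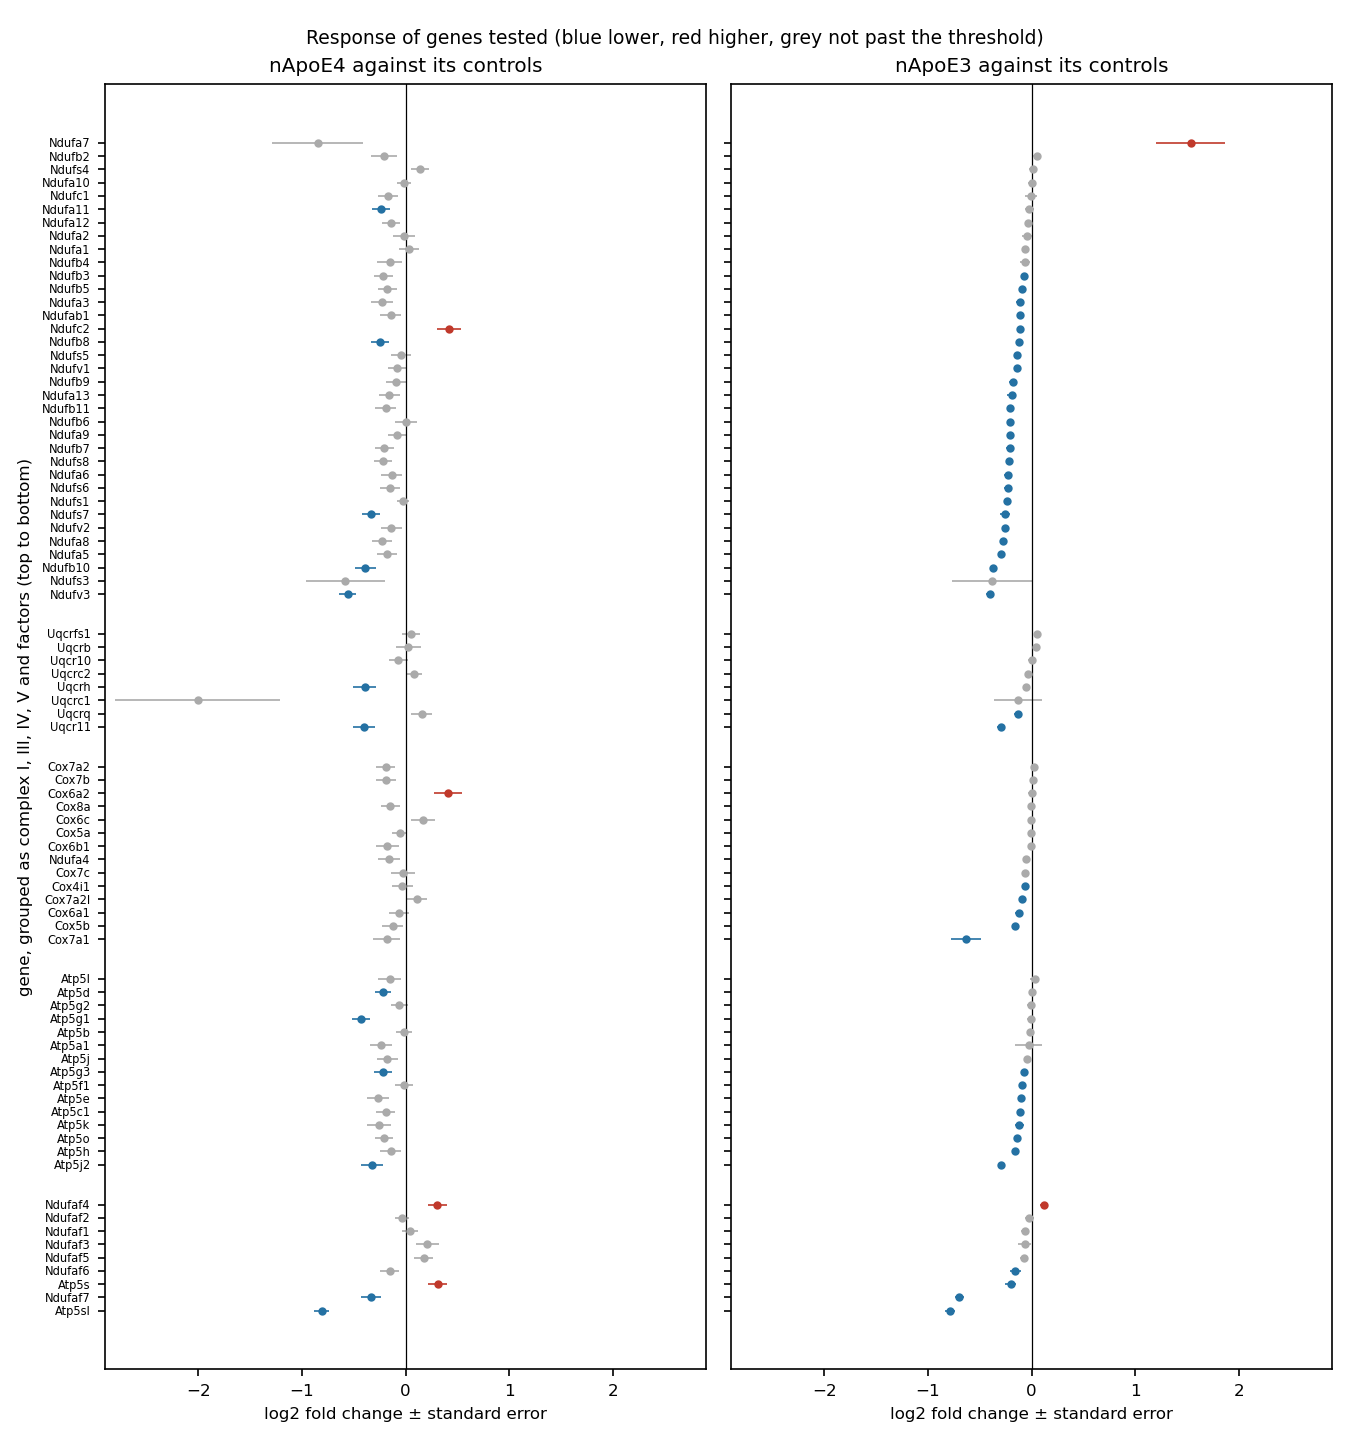
Log2 fold change with its standard error (x axes) of genes tested (y axis), against the own controls with nApoE4 (left) and nApoE3 (right), blue where lower and red where higher at an adjusted p under 0.05. Most genes lie to the left of 0 on both sides, errors are wider with nApoE4, and Atp5sl is far to the left on both, at −0.81 and −0.79.

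Set side by side, 9 members fell with both fragments, 11% of the 82 tested against 22.3% of the 13750 genes tested in both comparisons: Ndufv3, Ndufb10, Ndufs7 and Ndufb8 of complex I, Uqcr11 of complex III, Atp5j2 and Atp5g3 of complex V, and the factors Atp5sl and Ndufaf7. A further 4 fell with nApoE4 alone, namely Ndufa11, Uqcrh, Atp5g1 and Atp5d, and 33 with nApoE3 alone. Ndufaf4 rose with both, Ndufc2 and Atp5s rose with nApoE4 and fell with nApoE3, and 31 passed in neither. These counts join calls of different precision, and passing the test in 1 experiment alone does not show a difference between the fragments.

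That difference was tested as an interaction across the 11 libraries. It passed for 6 members, 4 with a higher and 2 with a lower response to nApoE4, which is 7.32% against 28.3% of all 15287 genes, 14.4% higher and 13.9% lower. Ndufa7 alone passed with a difference over 2-fold, against 5.93% of all genes. With the size factors of DESeq2 it was 2 in each direction. Without ControlA replicate 2 there were 16 higher and 2 lower, and without ControlA replicate 3 there were 3 higher and 9 lower. Without nApoE3 replicate 2 there were 1 higher and 2 lower, without nApoE3 replicate 1 there were 2 higher, and leaving out any other library except nApoE4 replicate 2 also left 2 higher. The medians of the difference were 0.00 for complex I, −0.06 for complex III, 0.03 for complex IV and −0.15 for complex V.

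Ndufc2, an accessory subunit of the membrane arm of complex I (chr7:97400003-97407800), moved in opposite directions. It was at 84.8, 100 and 75.0 CPM in ControlA and 115, 102 and 130 CPM with nApoE4, a rise of 0.42 ± 0.11 (adjusted p = 0.011) in which all 3 treated libraries were above the controls. It was at 135, 135 and 136 CPM in ControlB and 131 and 122 CPM with nApoE3, a fall of 0.11 ± 0.03 (adjusted p = 0.0064). In a single fit of the 11 libraries that fall did not pass (−0.11). The difference was 0.52 ± 0.14 (adjusted p = 0.017). Without nApoE4 replicate 3 the rise had an adjusted p of 0.053, and without nApoE3 replicate 2 the fall was 0.06 (adjusted p = 0.11) and the difference 0.47 (adjusted p = 0.088).

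Atp5s, known as factor B and thought to aid coupling of the ATP synthase, did the same at a lower level. It was at 12.5, 14.3 and 12.5 CPM in ControlA and 14.9, 16.8 and 16.9 CPM with nApoE4, and at 13.6, 13.0 and 12.8 CPM in ControlB and 11.4 and 11.5 CPM with nApoE3. Untreated levels were alike and the treated libraries stood on opposite sides of them. The changes were 0.31 ± 0.09 (adjusted p = 0.013) and −0.20 ± 0.05 (adjusted p = 0.0039), and their difference of 0.50 ± 0.11 (adjusted p = 0.0034) passed with every library left out in turn. The rise with nApoE4 alone had adjusted p of 0.057, 0.053 and 0.056 without ControlA replicate 1, nApoE4 replicate 2 or nApoE4 replicate 3. The fall with nApoE3 did not pass in a single fit of the 11 libraries (−0.20). For Atp5g1, lower with nApoE4 alone, the difference was −0.43 ± 0.11 (adjusted p = 0.012), or −0.38 (adjusted p = 0.074) without nApoE3 replicate 1. For Ndufaf7 it was 0.35 ± 0.12 (adjusted p = 0.045) and for Ndufs1 0.20 ± 0.07 (adjusted p = 0.046). Both stood at the threshold: leaving out 1 library gave adjusted p of up to 0.18 for Ndufaf7 and up to 0.14 for Ndufs1. The value of −2.39 ± 0.62 for Ndufa7 (adjusted p = 0.012) rests on 11 to 51 counts a library.

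**Figure D4:**
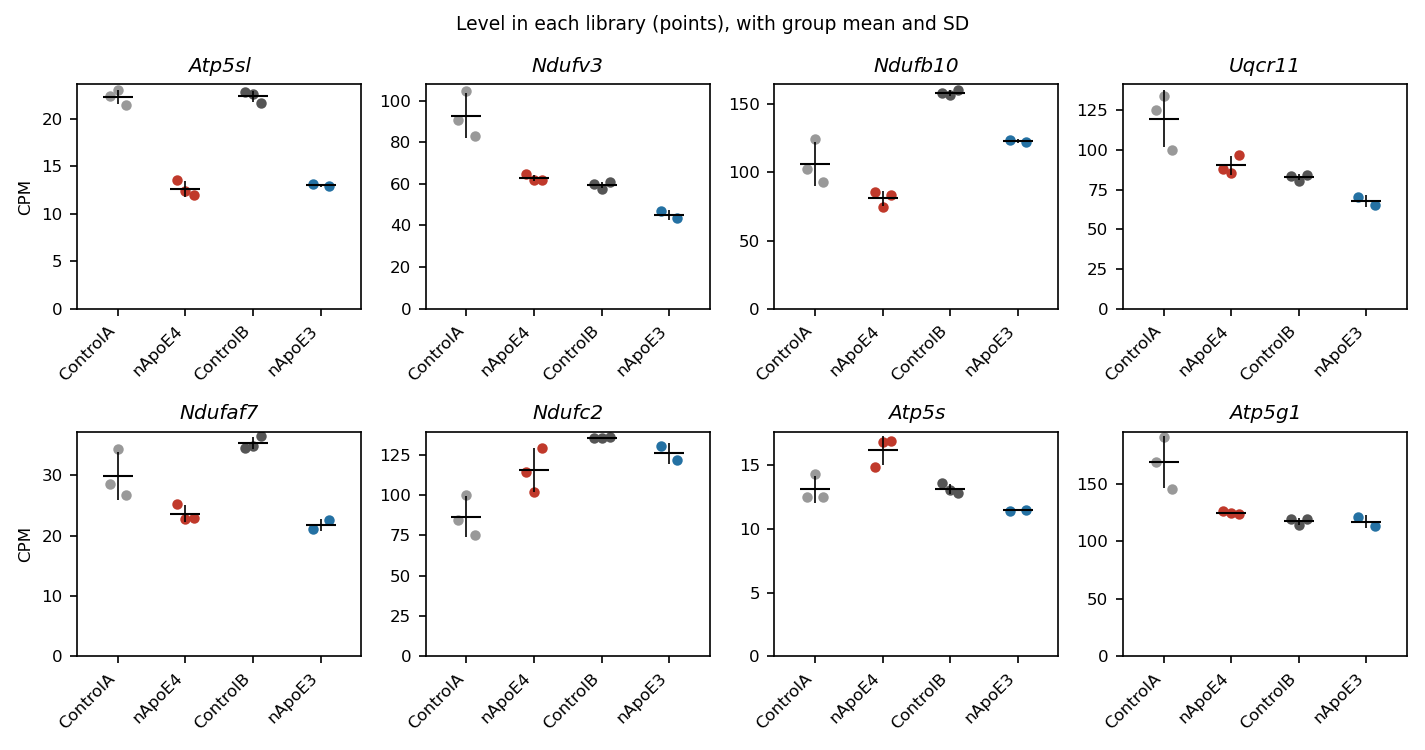
Level in CPM (y axes, from 0) of 8 genes in each library (points) of the 4 groups (x axes), with the group mean and SD as black lines. Atp5sl, Ndufv3, Ndufb10, Uqcr11 and Ndufaf7 are lower with both fragments, Ndufc2 and Atp5s are higher with nApoE4 and lower with nApoE3, and Atp5g1 is lower with nApoE4 alone.

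The untreated cells of the 2 experiments also differed from each other. Between ControlB and ControlA, 21 members were higher and 32 lower in ControlB, 64.6% of those tested against 69.3% of all 14249 genes. The median size of the difference was 0.33 log2 units for members, against 0.17 with nApoE4 and 0.10 with nApoE3. Over all genes these sizes were 0.44, 0.36 and 0.34 log2 units. Between the controls 6 members differed more than 2-fold, against 17.9% of all genes. Lower in ControlB were Atp5g2 (202 ± 21.7 against 75.1 ± 1.16 CPM, log2 difference −1.44 ± 0.08), Atp5l, subunit g of the ATP synthase (189 ± 30.3 against 72.3 ± 3.32 CPM, −1.40 ± 0.11), and Cox8a (371 ± 44.2 against 175 ± 6.91 CPM, −1.10 ± 0.08). The groups were far apart for all 3 genes. Higher in ControlB were Ndufaf5 (13.4 ± 1.4 against 29.9 ± 0.396 CPM, 1.14 ± 0.07), Ndufaf4 (23.8 ± 3.26 against 47.7 ± 0.6 CPM, 0.98 ± 0.09) and Ndufs1 (82.2 ± 2.87 against 160 ± 0.0192 CPM, 0.94 ± 0.04), each with n = 3. Adjusted p was below 0.0001 for these 6 genes. Of the 14 complex IV members tested, 8 were lower and 1 higher in ControlB, with a median of −0.31. Of the 9 factors, 5 were higher and 0 lower, with a median of 0.51. That is 64.3% and 55.6% called, against 69.3% of all genes, 34.4% higher and 34.9% lower. The file names carry another sequencing lane for each experiment, and lane and experiment cannot be told apart.

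The other genes of the pathway were taken from lists of known members. All 6 genes of complex II and cytochrome c changed with nApoE3, 5 lower and 1 higher, and 2 did with nApoE4, where 67.7% and 57.2% of all genes changed. With nApoE3, 34.6% of all genes fell and 33.1% rose. Sdhd, a membrane anchor of complex II, was at 246, 294 and 245 CPM in ControlA and 206, 175 and 197 CPM with nApoE4, and fell by 0.44 ± 0.09 (adjusted p = 0.0024). With nApoE3 it was at 213 and 206 CPM against 249, 251 and 259 CPM and fell by 0.28 ± 0.03 (adjusted p = 9.7e-07). Sdha, Sdhb and Sdhc, the flavin, iron-sulfur and other anchor subunits, fell with nApoE3 by 0.21 ± 0.02, 0.26 ± 0.03 and 0.16 ± 0.02 and had estimates of −0.09, −0.17 and −0.19 with nApoE4 that did not pass. Cyc1, the cytochrome c1 of complex III, fell by 0.17 ± 0.03 with nApoE3. Cycs, cytochrome c itself, rose with both, by 0.25 ± 0.09 (adjusted p = 0.043) and 0.19 ± 0.03 (adjusted p = 4.6e-05). In the first experiment its groups overlapped, at 97.2, 110 and 90.4 CPM in ControlA and 123, 104 and 127 CPM with nApoE4.

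Of the 13 subunits encoded in the mitochondrion, 5 passed the test with nApoE3 and 1 with nApoE4. That is 38.5% and 7.69% called, against 67.7% and 57.2% of all genes. With nApoE3, 4 rose and 1 fell, with a median of 0.04, and with nApoE4 CYTB fell, with a median of −0.08. COX1, the catalytic subunit of complex IV, was at 8377 and 8561 CPM with nApoE3 against 7634, 7557 and 7740 CPM in ControlB, a rise of 0.14 ± 0.01 (adjusted p = 3.0e-06). CYTB, the cytochrome b of complex III, was at 4316, 3472 and 4163 CPM with nApoE4 against 4898, 4792 and 4861 CPM in ControlA, a fall of 0.28 ± 0.09 (adjusted p = 0.027). nApoE4 replicate 2 was the lowest of the treated libraries for both CYTB and COX1. ND4, a proton-pumping subunit of complex I, differed between the fragments by −0.32 ± 0.08 (adjusted p = 0.0087) and CYTB by −0.32 ± 0.10 (adjusted p = 0.030). COX2, COX3, ATP6, ATP8, ND3 and ND4L had levels of at most 13.9 CPM, far below COX1, and are not read further apart from COX2 and ATP6, which passed with nApoE3 at 0.15 ± 0.06 (adjusted p = 0.048) and −0.26 ± 0.09 (adjusted p = 0.023).

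Assembly factors with other symbols moved in both directions. Of 29 tested, 7 rose and 9 fell with nApoE4, and 5 rose and 18 fell with nApoE3. That is 55.2% and 79.3% called, against 57.2% and 67.7% of all genes. Falls alone made up 28.6% of all genes with nApoE4 and 34.6% with nApoE3. Uqcc3, an assembly factor of complex III, was at 26.3, 34.1 and 25.3 CPM in ControlA and 17.7, 15.7 and 17.0 CPM with nApoE4, and at 24.6, 24.1 and 25.3 CPM in ControlB and 16.2 and 14.1 CPM with nApoE3. It fell by 0.76 ± 0.11 (adjusted p = 0.00030) and 0.71 ± 0.06 (adjusted p = 2.3e-07). Coa6 and Cox19, which serve complex IV, fell with nApoE4 by 0.56 ± 0.12 and 0.50 ± 0.08, and Cox18, which inserts COX2 into the membrane, rose by 0.41 ± 0.07 (adjusted p = 0.0034, 0.00055 and 0.00048). With nApoE3 the same genes passed in the same directions, at −0.52 ± 0.05, −0.37 ± 0.04 and 0.29 ± 0.07. With nApoE3, Lyrm7, a factor for the iron-sulfur protein of complex III, fell by 0.71 ± 0.06, Atpaf1, a factor for the head of the ATP synthase, fell by 0.54 ± 0.06, and Ttc19, which clears remnants from complex III, rose by 0.68 ± 0.05 (adjusted p = 6.9e-07, 4.6e-06 and 7.1e-08). With nApoE4, Ttc19 also rose, by 0.37 ± 0.08 (adjusted p = 0.0024), and Lyrm7 and Atpaf1 had estimates of −0.16 and −0.11 that did not pass. Atpif1, the inhibitor of the ATP synthase, fell with nApoE3 by 0.18 ± 0.03 (adjusted p = 0.00011), and its estimate with nApoE4 was −0.17 ± 0.10 (adjusted p = 0.15).

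Of 13 regulators of mitochondrial biogenesis, 4 rose and 5 fell with nApoE4, and 4 rose and 6 fell with nApoE3. That is 69.2% and 76.9% called, against the same 57.2% and 67.7% of all genes. Ppargc1b, a coactivator of respiratory genes, was at 23.3, 16.6 and 25.3 CPM in ControlA and 11, 13.4 and 12 CPM with nApoE4, and at 35.3, 34.2 and 34.3 CPM in ControlB and 16.9 CPM in both nApoE3 libraries. It fell by 0.84 ± 0.15 (adjusted p = 0.00097) and 1.04 ± 0.04 (adjusted p = 2.1e-10), with no overlap. Its better known relative Ppargc1a was at 2.28, 1.61 and 2.27 CPM in ControlA and 0.396 to 0.457 CPM with nApoE4, a fall of 2.25 ± 0.22 (adjusted p = 2.0e-05), while in ControlB it was at 0.194 to 0.319 CPM already. With nApoE3 it was at 0.395 and 0.407 CPM, above every ControlB library, with an estimate of 0.73 ± 0.33 that did not pass (adjusted p = 0.068), and the difference between the fragments was −2.995 ± 0.372 (adjusted p = 6.4e-05). Ppargc1a held few counts, 72 to 106 in a ControlA library, 17 to 19 with nApoE4, 12 to 18 in ControlB and 23 in each nApoE3 library. Esrra, the nuclear receptor these coactivators work with, fell by 0.58 ± 0.03 with nApoE3 (adjusted p = 7.1e-09) and by 0.27 ± 0.06 with nApoE4 (adjusted p = 0.0035). Polrmt, the RNA polymerase of the mitochondrion, fell with nApoE3 by 0.44 ± 0.04 (adjusted p = 5.7e-07) and with nApoE4 by 0.36 ± 0.08 (adjusted p = 0.0029). Gabpb1, a subunit of the ETS factor that binds many respiratory promoters, rose from 35.2 ± 0.668 to 61.1 ± 1.4 CPM with nApoE4 and from 47 ± 0.907 to 72.4 ± 3.44 CPM with nApoE3. Its log2 fold changes were 0.80 ± 0.05 (adjusted p = 1.2e-06) and 0.62 ± 0.04 (adjusted p = 1.1e-08). Tfb1m, a methyltransferase of the mitochondrial ribosome, rose with nApoE4 by 0.47 ± 0.08 (adjusted p = 0.00053), and its estimate with nApoE3 was 0.01 ± 0.04.

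Promoters were searched because respiratory genes are known for sites of the factors NRF1, the ETS factor GABP and YY1. RefSeq promoter windows of GRCm38.p6, from 250 bases before to 50 after the start, matched 70 of the 88 members by symbol, 67 of them tested. The letters GCATGCGC (NRF1) stood on either strand in 16.4% of the windows of tested members and in 5.49% of those of all tested genes. CCGGAAG (ETS) stood in 22.4% and 18.1%, AAGATGGCG (YY1) in 10.4% and 3.18%, and TATAAA in 7.46% and 9.89%. Members with and without the NRF1 letters fell in similar shares, 18.2% of 11 and 17.9% of 56 with nApoE4 and 45.5% and 53.6% with nApoE3. A match of letters is a description and not a site shown to be bound. The windows below, from 150 bases before to 30 after the start on the strand of the gene, are of a gene that fell with both fragments and holds NRF1 and ETS letters (Uqcr11, chr10:80406792-80406971, minus strand), of the gene that rose with both and holds NRF1 letters more than once (Ndufaf4, chr4:24897933-24898112, plus strand), and of the subunit with the strongest fall past the test with nApoE4, which holds none of them (Ndufv3, chr17:31519965-31520144, plus strand). Capitals mark these letters on either strand.
Uqcr11: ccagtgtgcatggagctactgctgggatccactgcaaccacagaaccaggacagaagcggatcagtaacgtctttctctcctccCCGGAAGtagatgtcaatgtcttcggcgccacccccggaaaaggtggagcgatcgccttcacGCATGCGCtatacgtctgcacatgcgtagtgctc
Ndufaf4: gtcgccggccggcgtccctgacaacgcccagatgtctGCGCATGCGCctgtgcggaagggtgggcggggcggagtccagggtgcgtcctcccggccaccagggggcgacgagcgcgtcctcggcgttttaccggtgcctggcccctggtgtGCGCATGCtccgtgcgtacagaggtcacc
Ndufv3: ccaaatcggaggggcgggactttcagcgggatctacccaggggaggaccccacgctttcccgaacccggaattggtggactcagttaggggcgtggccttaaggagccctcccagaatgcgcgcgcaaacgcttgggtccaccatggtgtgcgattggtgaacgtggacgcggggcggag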

How the data were processed

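RNA of 11 libraries of BV2 cells was sequenced. Reads were trimmed (Trim Galore 0.5.0), quality checked (FastQC 0.11.8), mapped to GRCm38.p6 (HISAT2 2.1.0) and counted per gene symbol (HTSeq 0.11.0), and the authors deposited these raw counts without normalisation. The annotation release, strand setting and overlap mode are not given in the sources used here, so reads of overlapping or antisense genes may be divided unevenly. Reads in 5 tallies of uncounted reads stayed out of library sizes.

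Groups came from the sample labels. The study describes its averaged data as independent measurements or trials. Neither it nor the labels say that replicates were separate cultures. The p-values therefore measure the spread between these libraries, which may be technical. In R 4.3.3 with edgeR 4.0.16, genes were kept by filterByExpr, scaled by TMM and compared, each fragment with its own controls, by its quasi-likelihood F test, with p-values adjusted by Benjamini-Hochberg over all genes tested and a threshold of 0.05. Standard errors are approximate, the size of the log2 fold change over the square root of F. The fragments were compared by an interaction over 4 group means. Levels are CPM with TMM factors over the 11 libraries, and members' fold changes are described by counts and medians with no set test. Exon lengths came from GENCODE M21, joining the exons of all transcripts of a gene, and positions and promoters from RefSeq. Tests were checked on simulated counts. These had the same spread in every comparison and larger changes than most members showed, so small changes were not covered.

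Alternatives were DESeq2 1.42.0 with its Wald test, its size factors in edgeR, total counts, other count filters (at least 1 count, or at least 10 in every library), a single fit of the 11 libraries, a block for replicate number, a fold above 2, classes by symbol, and leaving out each library. Medians without the 4 low-count members were added after seeing the data. Only members were followed through the alternatives, and calls of the other lists rest on the main fit. Named were, per comparison, the 8 largest rises and 8 largest falls past the threshold, the most counted member of each complex, paired forms, members moving in opposite directions, the 5 largest differences between fragments in each direction, members not tested, all complex II genes and at most 4 changed genes of each other list. A gene that these rules name is not reported here, although group counts include all members. The members, lists and rules were chosen with earlier results of these data known.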

Additional observations from a re-analysis of the deposited data

Results flagged for a closer look

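The response to nApoE4 minus the response to nApoE3 passed its own test, an interaction across the 11 libraries by edgeR's quasi-likelihood test, for 6 of the 82 members tested. On the log2 scale it was 0.52 for Ndufc2 and 0.50 for Atp5s, both higher with nApoE4 and lower with nApoE3. It was 0.35 for Ndufaf7, which fell less with nApoE4, and 0.20 for Ndufs1, which fell past the test with nApoE3 only. It was −0.43 for Atp5g1, which fell past the test with nApoE4 only, and −2.39 for Ndufa7, a gene with 11 to 51 counts a library. The fragments were given in separate experiments with separate controls, and untreated levels differed between these for Ndufc2, Ndufs1, Atp5g1 and Ndufa7, so fragment and experiment cannot be told apart.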

How the results depend on the processing

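Where a call was lost or a value moved, the cause was not tested. Of 58 named values of members past the threshold, 35 kept direction and call under every alternative run, and 1 changed direction, Ndufaf4 with nApoE3 under total counts (−0.015). Genes outside the members, such as those of complex II and the regulators, were not followed through the alternatives. Scaled to total counts, 38 members fell with nApoE4, and 75 fell and 1 rose with nApoE3, where the medians were −0.23 over all members and −0.28, −0.17, −0.16 and −0.21 for complexes I, III, IV and V, against −0.13 over all genes. That scaling also turned the sign of 4 estimates not past the threshold, Uqcrc2 with nApoE4 (−0.0054) and Cox6a2, Cox7a2 and Cox7b with nApoE3 (−0.13, −0.11 and −0.12). With genes of at least 1 count kept, 23 fell with nApoE4, and with nApoE3 the complex IV median was −0.067 and Cox6a2 −0.0082. In one fit of all 11 libraries, 25 fell with nApoE4, 14 fell and 1 rose with nApoE3, Cox8a with nApoE3 was 0.0043 and Atp5s between controls 0.0027. With a fold above 2 also required, edgeR called 0 lower and 0 higher with nApoE4 (1, Uqcrc1, at an unadjusted p under 0.05, 0 by DESeq2), and 0 lower and 1 higher with nApoE3. DESeq2's size factors gave a higher response to nApoE4 for 2 members, and for nApoE3 0.00056 for Cox6b1 and 0.0067 for Cox8a, or 0.00046 and 0.0064 by its Wald test. With at least 10 counts in every library, Cox6b1, Cox8a, Atp5g1 and Atp5g2 with nApoE3 were 0.0035, 0.0097, 0.0014 and 0.0016. With replicate number as a block, 8 fell with nApoE4, the difference between fragments was higher for 1 and lower for 1, and Cox6b1, Cox8a and Atp5g1 with nApoE3 were 0.021, 0.032 and 0.0024. The numbers were not used to pair libraries, since same-numbered libraries deviated from their group means with correlations of −0.039, −0.17 and −0.062 with nApoE4 and −0.0079 and −0.013 with nApoE3.

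Leaving out each library in turn, members that fell with nApoE4 ranged from 7 (without nApoE4 replicate 2) to 36 (without ControlA replicate 3) and those that rose from 0 to 11. Those that rose with nApoE3 ranged from 1 to 2, those higher in ControlB from 16 to 34 (the latter without ControlA replicate 2), and those with a higher or lower response to nApoE4 than to nApoE3 from 1 to 16 and from 0 to 9. The complex I median with nApoE3 ranged from −0.19 to −0.13, and the medians of the difference from −0.079 to 0.15 for complex IV and from −0.23 to −0.022 for complex V. Estimates near 0 that turned sign ranged, with nApoE4, from −0.13 to 0.086 for Cox4i1, −0.16 to 0.047 for Cox6a1, −0.13 to 0.019 for Atp5g2 and −0.069 to 0.040 for Atp5b. With nApoE3 they ranged from −0.0068 to 0.010 for Cox6a2, −0.033 to 0.021 for Cox6b1, −0.0053 to 0.048 for Cox7a2, −0.0047 to 0.028 for Cox7b, −0.040 to 0.036 for Cox8a, −0.057 to 0.035 for Atp5g1, −0.076 to 0.054 for Atp5g2 and −0.035 to 0.012 for Atp5b. Between the controls they ranged from −0.046 to 0.058 for Atp5s and −0.010 to 0.21 for Cox4i1. Without the low-count members Atp5a1, Ndufs3, Ndufa7 and Uqcrc1, the median over members was −0.15 with nApoE4 and −0.09 with nApoE3, and that of complex III with nApoE4 was 0.03.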

Other observations

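A pseudogene left out by the rule differed between the experiments. Uqcrh-ps1, a processed copy of the hinge protein gene of complex III, had 8, 16 and 13 counts in ControlA and 9, 9 and 12 with nApoE4, but 191, 163 and 180 in ControlB and 124 and 155 with nApoE3. Its parent Uqcrh was at 153 ± 24.6 CPM in ControlA and 134 ± 2.61 CPM in ControlB (SD, n = 3 each). Reads of near-identical copies can be divided between them by the counting, and which copy these reads came from was not tested. Atp5c1-ps had at most 4 counts in any library.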
